A study of Mus musculus with 20 samples.

Results

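The monoamine neuron genes described here are 10 genes that mark or build the neurons releasing dopamine, noradrenaline and serotonin. They are Th, Ddc, Dbh, Tph2, Slc6a3, Slc6a4, Slc18a2, Fev, Nr4a2 and Pitx3. Members were all probe sets to which the array's annotation gives 1 of these symbols and no other. This found 17 probe sets of 9 genes among the 45037 probe sets tested, which stand for 18193 named genes. Fev was not named in the annotation used here and was not analysed. Ddc had 2 probe sets, Dbh 3 and Nr4a2 6, and the other 6 genes had 1 each. A gene with several probe sets was represented by the one with the highest mean signal, called the brightest.

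RNA came from whole brains of WT and Hdac4KO pups on postnatal day 3, untreated, on a mixed B6CBAF1/OlaHsd background. There were 10 arrays per genotype, 5 from each sex by the labels. Hdac4KO pups were homozygotes from intercrosses within a knock-out colony, and which part of the gene the allele lacks was not given in the sources used here. Signals are log2 values of each probe set, and a difference of 1 is a doubling. A whole brain holds few monoamine neurons, and in such bulk RNA fewer cells of a type and less RNA per cell cannot be told apart.

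Dopamine and noradrenaline are made from tyrosine. Tyrosine hydroxylase (Th) takes the rate-limiting step, aromatic amino acid decarboxylase (Ddc) makes dopamine, and dopamine beta-hydroxylase (Dbh) turns dopamine into noradrenaline. Serotonin is made from tryptophan by tryptophan hydroxylase of the brain (Tph2) and, again, Ddc. The vesicular transporter Slc18a2 loads all these amines into vesicles. Slc6a3 and Slc6a4 take dopamine and serotonin back up from the synapse. Nr4a2 and Pitx3 are transcription factors of midbrain dopamine neurons, although Nr4a2 is also made in many other neurons, and Fev is a factor of serotonin neurons. The cell bodies of dopamine neurons lie mainly in the midbrain, and those of noradrenaline and serotonin neurons in the hindbrain.

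Th, Slc6a3 and Dbh of the catecholamine neurons and Tph2 and Slc6a4 of the serotonin neurons recur in the co-variation described later. The 250 bases before their transcription starts are shown, since the factors among the members bind such DNA. They are from RefSeq on GRCm38.p6. Capitals mark every GGAA on either strand (TTCC on the printed one), the core of sites of ETS factors such as Fev, and TGACGTCA, the cyclic AMP response element.
Th, chr7:142899996-142900245, minus strand: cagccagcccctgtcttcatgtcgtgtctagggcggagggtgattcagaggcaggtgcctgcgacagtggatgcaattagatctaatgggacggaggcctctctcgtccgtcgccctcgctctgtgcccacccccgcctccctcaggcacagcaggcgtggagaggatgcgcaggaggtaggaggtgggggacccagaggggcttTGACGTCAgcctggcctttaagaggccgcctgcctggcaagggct
Slc6a3, chr13:73536497-73536746, plus strand: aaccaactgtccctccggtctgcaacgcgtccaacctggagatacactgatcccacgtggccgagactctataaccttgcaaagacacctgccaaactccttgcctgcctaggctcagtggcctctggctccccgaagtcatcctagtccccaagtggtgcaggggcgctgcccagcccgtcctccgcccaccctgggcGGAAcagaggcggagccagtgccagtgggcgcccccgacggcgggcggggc
Dbh, chr2:27165257-27165506, plus strand: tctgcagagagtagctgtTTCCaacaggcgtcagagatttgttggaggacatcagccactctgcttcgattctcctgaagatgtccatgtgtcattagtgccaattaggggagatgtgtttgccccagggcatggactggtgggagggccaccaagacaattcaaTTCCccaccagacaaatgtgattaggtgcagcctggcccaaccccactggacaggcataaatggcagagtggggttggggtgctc
Tph2, chr10:115185023-115185272, minus strand: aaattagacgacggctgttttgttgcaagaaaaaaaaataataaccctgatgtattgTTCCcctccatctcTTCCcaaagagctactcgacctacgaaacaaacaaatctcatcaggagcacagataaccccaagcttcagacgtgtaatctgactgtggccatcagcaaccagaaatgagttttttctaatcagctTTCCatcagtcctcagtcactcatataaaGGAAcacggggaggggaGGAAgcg
Slc6a4, chr11:76998347-76998596, plus strand: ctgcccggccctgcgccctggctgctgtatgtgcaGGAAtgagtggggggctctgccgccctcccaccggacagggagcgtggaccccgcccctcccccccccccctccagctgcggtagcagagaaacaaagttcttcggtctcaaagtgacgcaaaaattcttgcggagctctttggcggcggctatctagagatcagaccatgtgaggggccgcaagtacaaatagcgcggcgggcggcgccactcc
The Tph2 window held 5 matches to GGAA, at 193, 179, 53, 24 and 7 bases before the start, Dbh held 2, at 232 and 85 bases, Slc6a3 and Slc6a4 held 1 each, and Th held 0. The Th window held the cyclic AMP response element 45 bases before the start, a motif that was added after the sequences were seen. GGAA is short and lay in 93.45% of all 32851 promoter windows, and the cyclic AMP response element lay in 1.55%. All 10 members were found in the promoter table, Ddc with 2 starts. Of these 11 windows 9 held GGAA and 1 held the cyclic AMP response element. The core of the Nr4a2 site, AAGGTCA, was in 1 of them, a Ddc window, 73 bases before the start, and in 4.08% of all windows. A site of bicoid-type factors such as Pitx3, spelled TAATCC, was in 0 of them and in 6.25% of all windows. Both strands were searched. The 4 motifs share no overlapping match in the printed windows.

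Hdac4 checked the labels. At its probe set 1454693_at the log2 signal was 7.92 in WT and 6.53 in Hdac4KO arrays (log2 fold change -1.39, adjusted p = 6.28e-07, limma). The Hdac4KO array nearest to WT was replicate 10 (7.43), and the WT array nearest to Hdac4KO was replicate 8 (7.54). In 3 arrays, WT replicates 5 and 9 and Hdac4KO replicate 10, Xist and Y-linked genes went against the sex on the label, and Hdac4KO replicate 10 had both. All labels were kept. Correlations between arrays over all probe sets were 0.992 to 0.997, no 2 arrays held identical values, and the median signal lay between 6.26 and 6.32 in each array. By the study's methods each array holds the RNA of a separate brain, and the spread is then that between animals together with technical error. Whether this holds for Hdac4KO replicate 10, with both Xist and Y-linked signal and Hdac4 near WT, was not tested.

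Of the 17 probe sets, 1 was called higher in Hdac4KO brains and 0 were called lower at an adjusted p under 0.05 in limma. At an unadjusted p under 0.05 there were 2 higher and 0 lower. Over all 45037 probe sets 2.06% were called, 1.05% higher and 1.01% lower, and over the brightest probe sets of the 18193 genes 1.96% were called. The median log2 fold change of the 17 was 0.04, beside 0.00 over all probe sets, and 11 of the 17 were above 0. The median size of the change, regardless of sign, was 0.05 for the members and 0.05 over all probe sets.

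**Figure D1:**
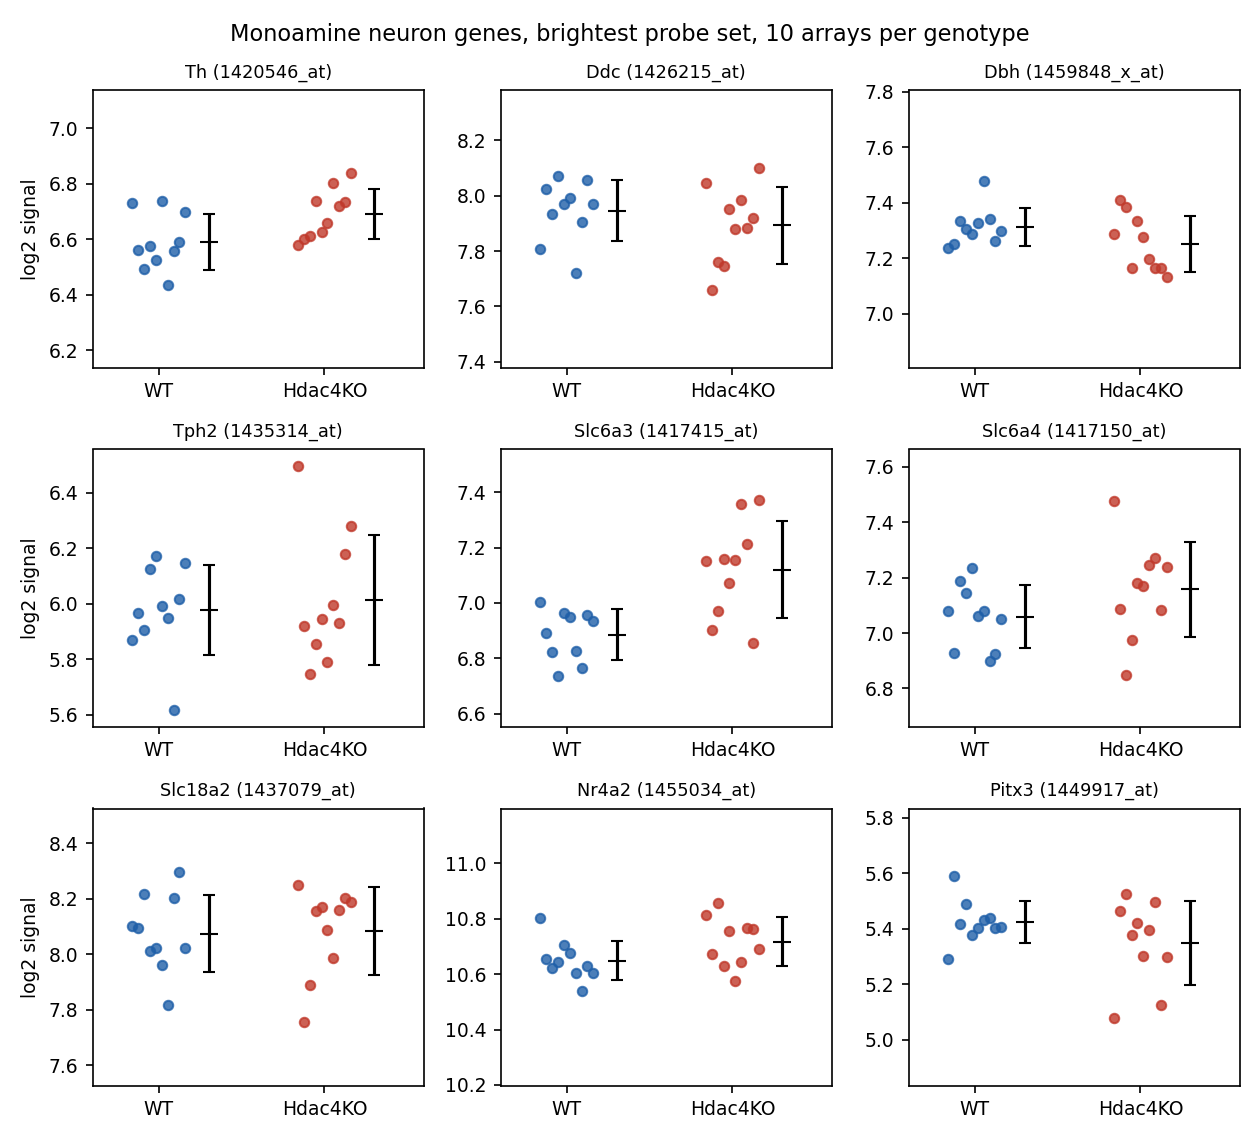
Log2 signal of the brightest probe set of 9 monoamine neuron genes, with a point for each array (10 WT, blue, and 10 Hdac4KO, red) and a bar for the mean and SD beside each group. Every panel spans 1 log2 unit; only for Slc6a3 do most Hdac4KO arrays (7 of 10) lie above the highest WT array, and in no panel are the groups fully apart.

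The called gene was Slc6a3, the dopamine transporter, at probe set 1417415_at. Its log2 signals in the WT arrays, from replicate 1 to 10, were 7.002, 6.89, 6.82, 6.74, 6.96, 6.95, 6.83, 6.77, 6.96 and 6.94. In the Hdac4KO arrays they were 7.15, 6.90, 6.97, 7.16, 7.07, 7.15, 7.36, 7.21, 6.86 and 7.37. Of the 10 Hdac4KO arrays 9 lay above the WT mean and 7 above the highest WT array, while replicates 2, 3 and 9 lay within the WT range, so the groups overlapped. The highest signal was that of Hdac4KO replicate 10, the array with both Xist and Y-linked signal and with Hdac4 near WT. Leaving it out gave a log2 fold change of 0.21 (limma, adjusted p = 0.0722). The group means, each with its SD over 10 arrays, were 6.88 ± 0.09 for WT and 7.12 ± 0.17 for Hdac4KO (n = 10 each). This is a 1.18-fold higher signal (95% interval 1.08 to 1.28), or 0.24 on the log2 scale (SE 0.06; limma, adjusted p = 0.0438).

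The size of the Slc6a3 difference varied little, while its call did not hold in most alternatives. The call was lost in 22 of 33 alternatives, with log2 fold changes from 0.17 to 0.27 and adjusted p-values from 0.0184 to 0.163 over all of them. The methods' t-test gave an adjusted p of 0.0541 after Benjamini-Hochberg, and sex as a covariate 0.051. Leaving out any 1 of 14 arrays also ended the call: WT replicates 2 to 8 and Hdac4KO replicates 1, 4, 5, 6, 7, 8 and 10, with adjusted p from 0.0553 without Hdac4KO replicate 1 to 0.0835 without Hdac4KO replicate 8. Without WT replicate 8 and Hdac4KO replicate 10 together, the array of each genotype with Hdac4 nearest to the other, the log2 fold change was 0.19 (adjusted p = 0.109). Without the 3 arrays at odds with their sex label it was 0.23 (adjusted p = 0.0828).

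Th was the other member with an unadjusted p under 0.05. Its signals ran from 6.43 (median 6.57) to 6.74 in WT and from 6.58 (median 6.69) to 6.84 in Hdac4KO arrays. Of the Hdac4KO arrays 9 lay above the WT mean and 2 above the highest WT array. The log2 fold change was 0.10 (SE 0.04, 95% interval 0.01 to 0.19, adjusted p = 0.221, limma), below the threshold for a call.

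The other enzymes did not pass the test. Ddc, shared by all the amine pathways, had signals of 7.72 to 8.07 (median 7.97) in WT and 7.66 to 8.10 (median 7.90) in Hdac4KO arrays at its brightest probe set, 1426215_at. Its log2 fold change was -0.05 (95% interval -0.17 to 0.06, adjusted p = 0.673). Tph2 ran from 5.62 to 6.17 (median 5.98) in WT and from 5.75 to 6.50 (median 5.94) in Hdac4KO arrays, where the highest signal was that of replicate 1. Its log2 fold change was 0.04 (95% interval -0.14 to 0.21, adjusted p = 0.87), the widest interval among the brightest probe sets. Most Tph2 signals lay below the median of their own array, and only 2 of 20 arrays had it above. For Dbh the brightest probe set, 1459848_x_at, ran from 7.24 to 7.48 (median 7.30) in WT and from 7.13 to 7.41 (median 7.24) in Hdac4KO arrays. Its log2 fold change was -0.06 (95% interval -0.14 to 0.02, adjusted p = 0.449), and 3 of 10 Hdac4KO arrays lay above the WT mean.

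The remaining transporters did not pass either. Slc6a4, the serotonin transporter, ran from 6.90 to 7.24 (median 7.07) in WT and from 6.85 to 7.47 (median 7.18) in Hdac4KO arrays. Of the latter 8 lay above the WT mean and 4 above the highest WT array, with a log2 fold change of 0.10 (95% interval -0.03 to 0.23, adjusted p = 0.433). Slc18a2, the transporter common to all these neurons, ran from 7.82 to 8.30 (median 8.06) in WT and from 7.76 to 8.25 (median 8.16) in Hdac4KO arrays. Its log2 fold change was 0.01 (95% interval -0.12 to 0.14, adjusted p = 0.959). The difference at Slc6a3 was therefore not accompanied by a called difference in the vesicular transporter that dopamine neurons also use, although whether the differences at these genes are unequal was not tested.

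Of the transcription factors, Pitx3 ran from 5.29 to 5.59 (median 5.41) in WT and from 5.08 to 5.53 (median 5.39) in Hdac4KO arrays. Its signal lay below the array median in all 20 arrays, and its log2 fold change was -0.08 (95% interval -0.18 to 0.03, adjusted p = 0.477). Nr4a2 ran from 10.54 to 10.80 (median 10.64) in WT and from 10.58 to 10.86 (median 10.72) in Hdac4KO arrays at its brightest probe set, 1455034_at, with a log2 fold change of 0.07 (95% interval -0.01 to 0.15, adjusted p = 0.351). The 6 probe sets of Nr4a2 did not share a direction. Their log2 fold changes ran from -0.11 at 1450749_a_at (adjusted p = 0.388) to 0.07 at 1433422_at (adjusted p = 0.559), 4 above 0 and 2 below. At 1450749_a_at the signals ran from 9.19 (median 9.30) to 9.40 in WT and from 8.85 (median 9.18) to 9.45 in Hdac4KO arrays. The Hdac4KO median there lay below the lowest WT signal, and the lowest Hdac4KO signals were 8.85 in replicate 9 and 8.91 in replicate 10.

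**Figure D2:**
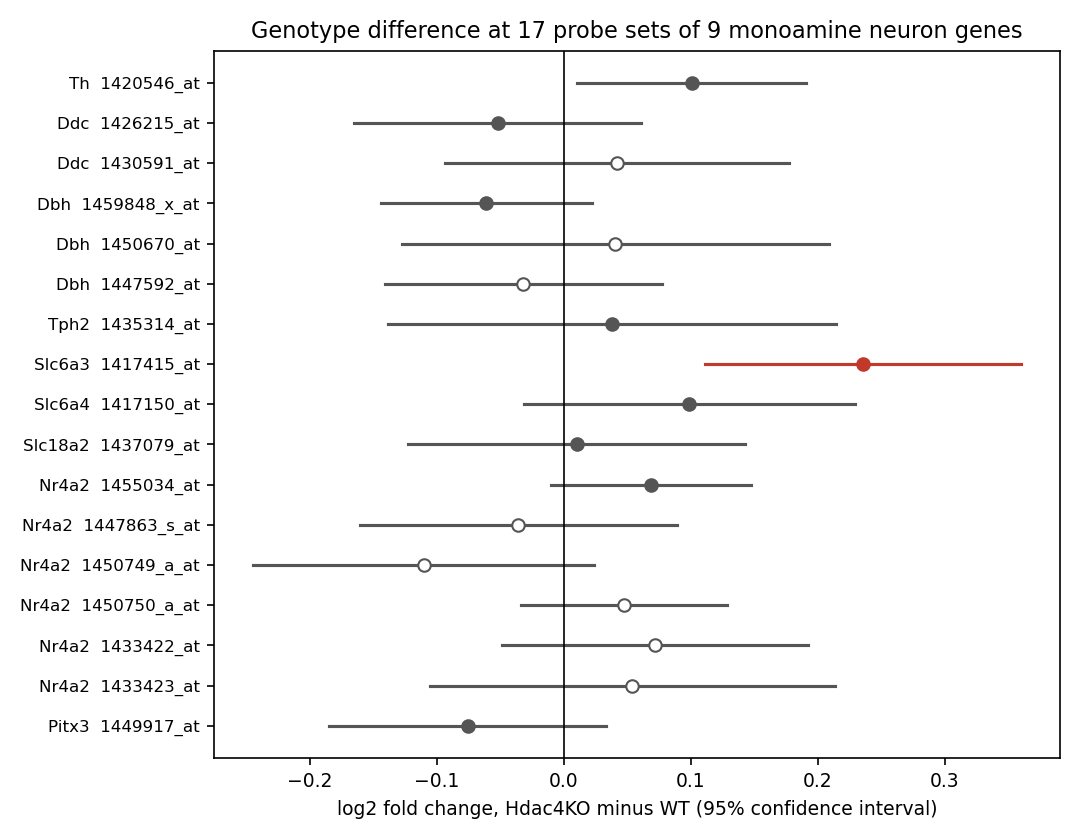
Log2 fold change of Hdac4KO over WT with its 95% interval for each of the 17 probe sets (filled points, brightest probe set of a gene; open points, its other probe sets). The red point is Slc6a3 at 0.24, the member called at an adjusted p under 0.05; the intervals of all others except Th include 0.

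Several probe sets gave little information. Of the 17, 7 were above their array's median signal in fewer than 10 of 20 arrays and 5 in 0. Among the 5 were the second probe set of Ddc (1430591_at, 3.93 in WT and 3.97 in Hdac4KO brains) and both other probe sets of Dbh (1450670_at and 1447592_at). Deviations from the genotype mean did not follow each other at the 2 Ddc probe sets (r = -0.20) and did so weakly at the 3 Dbh probe sets (r = 0.18 to 0.40), over 20 arrays. For Nr4a2, r between its probe sets ranged from -0.62 to 0.77. The suffix x in the name of the brightest Dbh probe set marks probes that can also match other transcripts.

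The spread among arrays was larger in Hdac4KO than in WT arrays at 13 of the 17 probe sets. The median ratio of the SDs was 1.26, beside 1.10 over all probe sets, of which 60.5% had the larger SD in Hdac4KO arrays. For Slc6a3 the ratio was 1.90 and for Pitx3 1.95. At Th it was 0.87.

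The genotype difference was not found to depend on sex at any member. The interaction of genotype and labelled sex was called at 0 of 17 probe sets in limma, with 2 at an unadjusted p under 0.05, and the background over all probe sets was 0% called. For Slc6a3 the log2 fold change was 0.24 (SE 0.09) in males and 0.23 (SE 0.09) in females, each with n = 5 per genotype. The 2 with an unadjusted p under 0.05 were the dim Dbh probe set 1447592_at (0.12 in males, -0.18 in females, adjusted p = 0.915) and Pitx3 (0.03 in males, -0.19 in females, adjusted p = 0.917). Since 3 arrays went against their sex label, these values rest partly on doubtful labels.

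Genes that work around the members were read from lists. Of 14 genes of dopamine neuron fate and survival, 0 were called, with a median log2 fold change of -0.05, beside 0.01 over the brightest probe sets of all genes. The smallest p belonged to Msx1, a homeodomain factor of the early midbrain, at a log2 fold change of -0.20 (adjusted p = 0.0527), followed by En2 at -0.21 (adjusted p = 0.315). Of 8 measured genes of serotonin neurons 0 were called, and Insm1, a zinc finger factor of developing monoamine neurons, was at -0.26 (adjusted p = 0.21) and the zinc finger factor Gata3 at 0.05 (adjusted p = 0.731). Of 6 genes of noradrenaline and adrenaline neurons 0 were called. Pnmt, which makes adrenaline from noradrenaline, was at 0.09 (adjusted p = 0.351) and the factor Tfap2b at -0.10 (adjusted p = 0.437). Slc6a2, the noradrenaline transporter, was chosen after its value was seen. At the brightest of its 4 probe sets it had a log2 signal of 7.11 ± 0.48 in WT and 7.34 ± 0.15 in Hdac4KO brains (SD, n = 10 each), a log2 fold change of 0.22 (limma, adjusted p = 0.449). The signals ran from 5.78 to 7.37 in WT and from 7.09 to 7.50 in Hdac4KO arrays, so the difference leans on low WT signal. Across these 3 lists no gene passed the test in either direction at any of its probe sets.

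Of 7 genes for synthesis and recycling of the cofactor biopterin, which Th and Tph2 need, 0 were called, with Gchfr at -0.12 (adjusted p = 0.312) and Pcbd1 at -0.04 (adjusted p = 0.577). Of 7 genes of amine breakdown and low-affinity uptake, 0 were called at their brightest probe set. Slc29a4, a low-affinity monoamine transporter, was at 0.15 (adjusted p = 0.116) there, at 1441902_x_at, and was called higher at its other probe set, 1424900_at (0.16, SE 0.04, adjusted p = 0.0381, limma). Aldh2, an aldehyde dehydrogenase, was at -0.08 (adjusted p = 0.171). Unadjusted, 1 of these 7 was higher and 3 were lower.

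On the receiving side, 1 of 11 genes of dopamine receptors and striatal signalling was called. This was Gnal, the G protein subunit that couples the D1 receptor in striatum, at -0.48 (SE 0.12, adjusted p = 0.039, limma) at its brightest probe set, 1442021_at. Its other probe sets gave 0.06 (adjusted p = 0.358) at 1439957_at and 0.06 (adjusted p = 0.753) at 1446359_at, so its probe sets disagreed. Ppp1r1b, a phosphoprotein of dopamine signalling in striatal neurons, was at 0.21 (adjusted p = 0.106) and was named after its value was seen. Other genes of this list went the other way, such as Penk at -0.10 (adjusted p = 0.218) and Tac1 at -0.08 (adjusted p = 0.258). Unadjusted, 2 of the 11 were higher and 3 were lower, and in all 6 were above 0 and 5 below. Of 13 serotonin receptor genes 0 were called, 0 had an unadjusted p under 0.05, and Htr5b at 0.20 (adjusted p = 0.37) and Htr3a at 0.07 (adjusted p = 0.417) led. The 2 adrenergic receptor genes measured, Adra2c and Adra1b, were both at 0.08 (adjusted p = 0.408 and 0.559). Of 7 genes of histamine, acetylcholine and melatonin neurons 0 were called, led by Tph1 at 0.12 (adjusted p = 0.347) and Aanat at -0.08 (adjusted p = 0.502).

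Lists for the makeup of the samples were read beside the members. Of 14 hindbrain Hox genes 0 were called and 14 were lower in Hdac4KO brains, 6 of them at an unadjusted p under 0.05, with a median log2 fold change of -0.27. The leading ones were Hoxb6 at -0.97 (adjusted p = 0.12) and Hoxa4 at -0.53 (adjusted p = 0.163). The mean of the list, each gene centred, ranged from -0.85 to 0.59 in WT and from -0.68 to 0.53 in Hdac4KO arrays. With the Hox mean as a covariate, an alternative added after the data were seen, the log2 fold change of Slc6a3 was 0.17 (adjusted p = 0.163).

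Of 9 forebrain genes 0 were called, with Emx1 at 0.10 (adjusted p = 0.337) and Dlx5 at 0.10 (adjusted p = 0.393). In this list 7 were above 0 and 2 below, with a median log2 fold change of 0.07, beside 0.01 over the brightest probe sets of all genes. Among 10 pan-neuronal genes 1 was called at its brightest probe set, the neurofilament gene Nefl, lower at -0.28 (adjusted p = 0.0427), beside -0.11 (adjusted p = 0.254) at its other probe set. Unadjusted, 2 were higher and 1 was lower. Syt1, the calcium sensor of synaptic vesicles, was at 0.14 (adjusted p = 0.0504) at its brightest probe set, 1433884_at, and was called lower at 1431191_a_at (-0.38, adjusted p = 0.031), so its probe sets disagreed. The list's mean signal was 12.1 to 12.3 in WT and 12.2 to 12.3 in Hdac4KO arrays. Hormone genes of pituitary and hypothalamus had 0 of 11 called, with Avp at 0.31 (adjusted p = 0.114) and Prl at 0.12 (adjusted p = 0.288). Choroid plexus genes had 2 of 7 called, both lower: Ttr at -0.14 (adjusted p = 0.042) and Sostdc1 at -0.30 (adjusted p = 0.0478). In this list 6 were below 0 and 1 above, with a median log2 fold change of -0.17. Over the brightest probe sets of all genes 1.96% were called. Sostdc1 was also called at its other probe set, and Ttr at none of its other 3. Erythroid genes had 0 of 4 called, with Alas2 at 0.18 (adjusted p = 0.272) and Hba-a1 at -0.06 (adjusted p = 0.455). The part of choroid plexus, pituitary or blood in the Slc6a3 difference was not tested. The 3′ minus 5′ signal of the control probe sets, a sign of RNA quality, averaged 0.19 ± 0.03 over WT and 0.22 ± 0.03 over Hdac4KO arrays (mean and SD, n = 10 each). With it as a covariate the log2 fold change of Slc6a3 stayed at 0.23 (adjusted p = 0.135), while calls over all probe sets fell to 23 higher and 20 lower.

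Whether monoamine genes rose and fell together from array to array was asked next. For each of the 36 pairs of brightest probe sets, deviations from the genotype mean were correlated over the 20 arrays. They were tested by permuting arrays within genotype (two-sided, 100000 resamples), with Benjamini-Hochberg adjustment over the 36 pairs. Of the 36, 20 correlations were above 0, and the median r was 0.02. Over the pairs without Dbh, whose brightest probe set can match other transcripts, and Pitx3, dim in all 20 arrays, the median r was 0.23, a choice made after the values were seen. Most negative r involved these 2 genes, so leaving them out raises the median by itself. Tph2, above the array median in only 2 of 20 arrays, was kept. Past the threshold was 1 pair by Pearson's r and 2 by Spearman's rho, while 9 had an unadjusted p under 0.05.

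**Figure D3:**
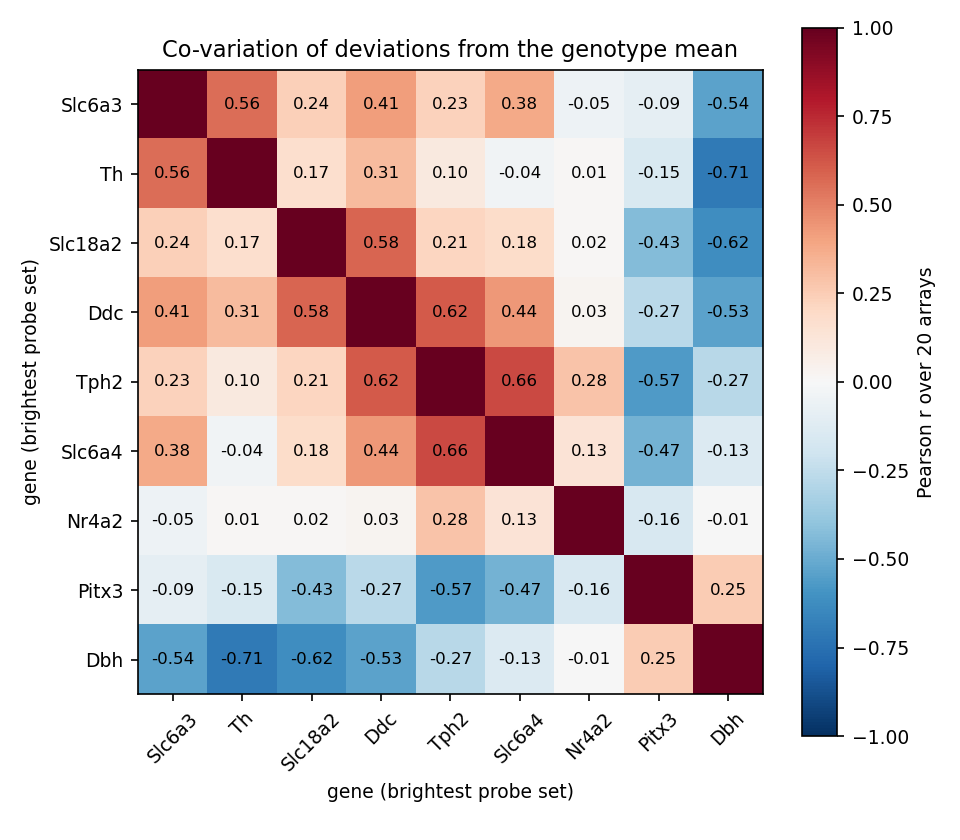
Pearson r over 20 arrays between deviations from the genotype mean of 9 genes at their brightest probe sets (red, above 0; blue, below 0). The highest values lie between Th and Slc6a3 (0.56), among Ddc, Tph2 and Slc6a4 (0.44 to 0.66) and between Ddc and Slc18a2 (0.58). Slc6a3 follows, with 0.41 for Ddc and 0.38 for Slc6a4. The column of Dbh is mostly negative, down to -0.71 with Th.

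The serotonin pair Tph2 and Slc6a4 had the highest r of all 36, at 0.66 (permutation p = 0.00335, adjusted p = 0.0603), with a Spearman rho of 0.46 (adjusted p = 0.285). In WT arrays r was 0.52 and in Hdac4KO arrays 0.73. Hdac4KO replicate 1 was the highest of all 20 arrays for both genes (6.50 for Tph2 and 7.47 for Slc6a4), and without it r was 0.51 (adjusted p = 0.175). Without the 2 arrays farthest from the median of Tph2, r was 0.45. As a description of rank, r of Slc6a4 with Tph2 was higher than that of 99.7% of all probe sets.

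Ddc followed the serotonin enzyme. Its r with Tph2 was 0.62 (permutation p = 0.00682, adjusted p = 0.0614) and its rho 0.74 (adjusted p = 0.00504), with r = 0.43 in WT and 0.72 in Hdac4KO arrays, and 0.72 without the 2 farthest arrays. By the mean of each gene's probe sets r fell to 0.38 (adjusted p = 0.323), where the dim second probe set of Ddc counts as much as the first. With Slc6a4 the r of Ddc was 0.44 (permutation p = 0.0757, adjusted p = 0.227), and with Slc18a2 it was 0.58 (permutation p = 0.0107, adjusted p = 0.064), or 0.25 without the 2 farthest arrays. The latter therefore rests on those 2 arrays.

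The dopamine pair Th and Slc6a3 had r = 0.56 (permutation p = 0.00914, adjusted p = 0.064) and rho = 0.61 (adjusted p = 0.077). It was 0.56 in WT, 0.62 in Hdac4KO arrays and 0.46 without the 2 farthest arrays. Hdac4KO replicate 9 stood apart, with the lowest Slc6a3 of its group (6.86) beside a Th signal of 6.73 above its group's mean, and without it r was 0.70 (adjusted p = 0.00984). Hdac4KO replicate 10 was the highest array for both genes, and without it r was 0.47 (adjusted p = 0.163). These were the highest and lowest r with 1 array left out. Not centred on genotype, where the shift of both genes between genotypes adds to r, the r over all arrays was 0.69. With the serotonin genes, Th had r = 0.10 for Tph2 and -0.04 for Slc6a4 (adjusted p = 0.836 and 0.976). The r of Slc6a3 was 0.23 with Tph2 and 0.38 with Slc6a4 (adjusted p = 0.644 and 0.399), so the 2 dopamine genes were not alike in this. That the correlations within and between transmitter systems differ was not tested.

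The pair past the threshold ran in the opposite direction. Th and Dbh, both used by noradrenaline neurons, had r = -0.71 (permutation p = 0.00062, adjusted p = 0.0223) and rho = -0.76 (adjusted p = 0.00504). The r was -0.56 in WT, -0.86 in Hdac4KO arrays and -0.75 without the 2 farthest arrays. This held only for the brightest Dbh probe set. With Dbh from 1450670_at r was -0.37 (adjusted p = 0.409), from 1447592_at -0.20 (adjusted p = 0.727), and by the mean of the probe sets -0.52 (adjusted p = 0.174). Without WT replicate 1 r was -0.69 (adjusted p = 0.0523), and without WT replicate 8 and Hdac4KO replicate 10 it was -0.66 (adjusted p = 0.0623). The weakest r with 1 array left out was -0.64 (adjusted p = 0.0488), without WT replicate 7. That array had the lowest Th (6.43) and the highest Dbh (7.48) of all arrays.

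The same Dbh probe set was negatively correlated with Slc18a2 (r = -0.62, permutation p = 0.00503, adjusted p = 0.0604), Slc6a3 (r = -0.54, permutation p = 0.032, adjusted p = 0.128) and Ddc (r = -0.53, permutation p = 0.0245, adjusted p = 0.11). Without the 2 farthest arrays these were -0.31, -0.45 and -0.18. It also moved with the first principal component of all probe sets, which held 17.7% of the variance among arrays (r = -0.62), as did Slc18a2 (0.65) and Ddc (0.60). With that component removed, Th and Dbh had r = -0.66 (adjusted p = 0.0631). Of all probe sets 14.1% had an r beyond 0.5 in size with this Dbh probe set, beside 5.79% with Th and 3.03% with Slc6a4, so a strong r is more common for some members than for others.

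**Figure D4:**
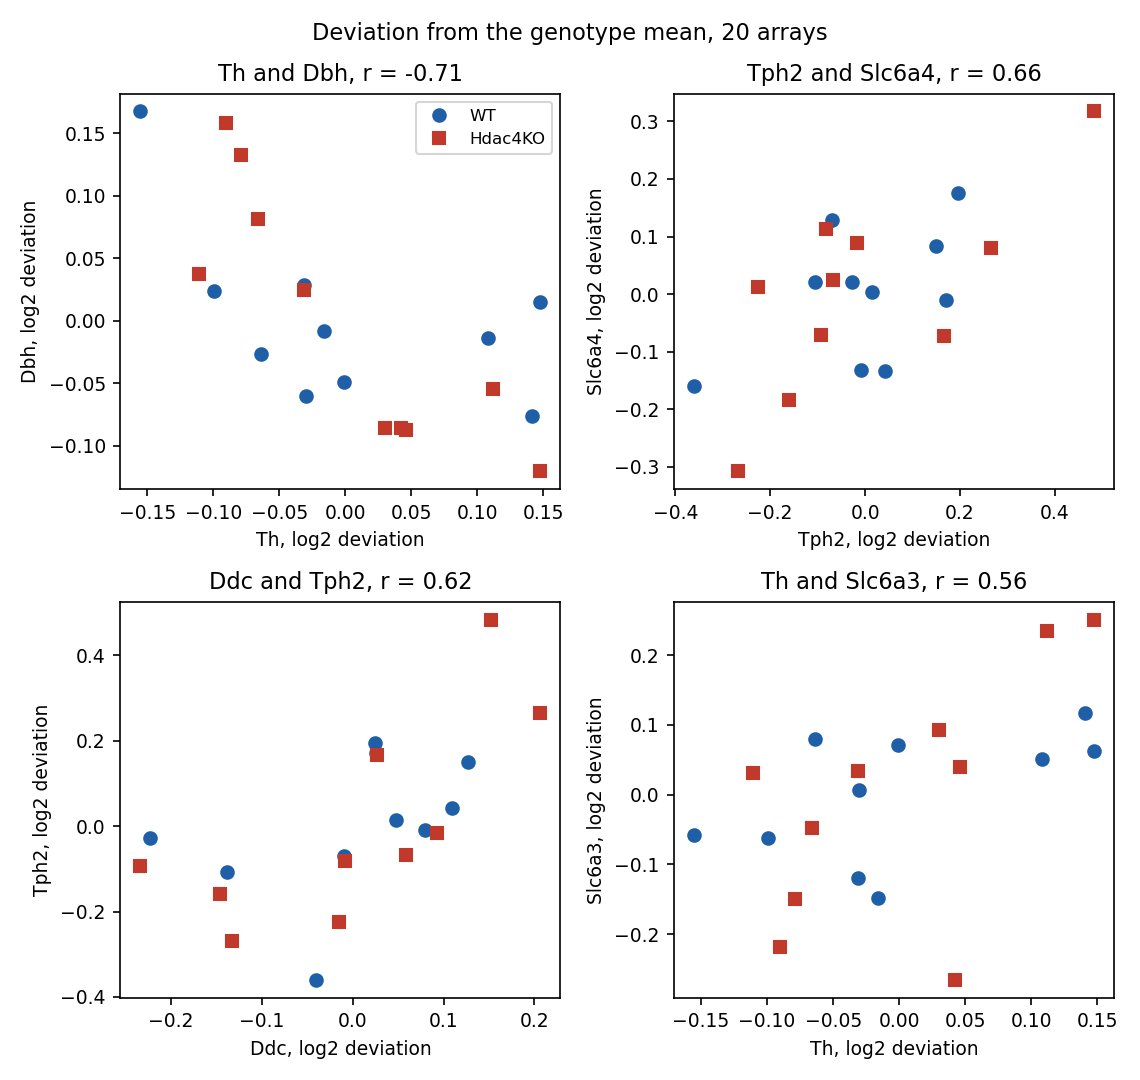
Deviations from the genotype mean (log2) of 4 pairs of genes in 20 arrays (WT, blue circles; Hdac4KO, red squares). Th and Dbh run opposite (r = -0.71), and Tph2 and Slc6a4 (0.66), Ddc and Tph2 (0.62) and Th and Slc6a3 (0.56) run together; Hdac4KO replicate 1 is the upper right point of the Tph2 and Slc6a4 panel.

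For the transcription factor Nr4a2 the result depended on the probe set. Its brightest, 1455034_at, had r between -0.16 and 0.28 with the other 8 genes, and 0.01 with Th (0.46 in WT and -0.40 in Hdac4KO arrays). Another bright one, 1450749_a_at, had r = 0.60 with Dbh, -0.59 with Slc18a2 and -0.50 with Ddc, and 1450750_a_at had -0.42 with Slc18a2, values that were not tested. Pitx3 was at or below 0.25 with all others. Its lowest r was -0.57, with Tph2 (permutation p = 0.0192, adjusted p = 0.0989), which was 0.04 in WT and -0.79 in Hdac4KO arrays and so did not hold within WT arrays. Hdac4KO replicate 1 had the highest Tph2 (6.50) and the lowest Pitx3 (5.08) of all arrays, and without it r was -0.35 (adjusted p = 0.35).

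The members were also correlated with 4 measures of each array, the means of the hindbrain Hox, forebrain and pan-neuronal lists and the 3′ minus 5′ signal. Of these 36 relations 0 were past the threshold and 4 had an unadjusted p under 0.05. Pitx3 had r = -0.57 with the forebrain mean (permutation p = 0.0018, adjusted p = 0.0634; rho = -0.59, adjusted p = 0.185), with -0.59 in WT and -0.77 in Hdac4KO arrays. Th had r = 0.63 with the forebrain mean (permutation p = 0.0039, adjusted p = 0.0711; rho = 0.58, adjusted p = 0.185), with 0.75 in WT and 0.42 in Hdac4KO arrays. Ddc had r = 0.59 with the pan-neuronal mean (permutation p = 0.0082, adjusted p = 0.0989). Slc6a3 had r = -0.47 with the Hox mean (permutation p = 0.0409, adjusted p = 0.368), with -0.38 in WT and -0.55 in Hdac4KO arrays. Without the 2 farthest arrays these 4 values were -0.61, 0.44, 0.43 and -0.29.

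For each member the 3 named genes with the most similar deviations over the 20 arrays were taken from all probe sets, with no test since they are the highest of many. Slc18a2 was closest to Gfra1 (r = 0.87), a receptor subunit for GDNF, the growth factor of dopamine neurons, followed by Plce1 (0.85) and Vipas39 (0.84). For Th they were St7l (0.81), Plcz1 (0.80) and Shisa3 (0.79), and for Slc6a3 Nrip3 (0.82), Eif2b5 (0.82) and 1700010I14Rik (0.82). Ddc was closest to Ssx2ip (0.86), Cyp2j6 (0.86) and 1700008J07Rik (0.85), and Dbh to Il6ra (0.85), Sdc4 (0.84) and Klk1 (0.83). For Tph2 the genes were Crebzf (0.79), Kat6b (0.79) and Ubap2l (0.79), and for Slc6a4 Ppp1r42 (0.77), Zc3h6 (0.74) and Map3k21 (0.74). Nr4a2 was closest to Gpr161 (0.84), Dhx30 (0.82) and Scn3a (0.82), and Pitx3 to Pwwp2b (0.83), Rptn (0.78) and Rinl (0.78). Of these 27 genes 0 were called between genotypes, and 1, Gfra1, was on a list of monoamine neuron genes.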

How the data were processed

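Whole-brain RNA of 20 pups was labelled from 200 ng with a 3′ IVT kit and hybridised to Affymetrix mouse genome arrays. Chips with a high normalized unscaled standard error were excluded. The values used are the log2 signals of each probe set as deposited by the authors. The array medians were nearly equal (6.26 to 6.32), and the method of normalization between arrays was not given in the sources used here. Precision is limited by how many arrays there are.

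Of 45101 probe sets, 64 controls were left out. Of the 45037 tested, 34945 carried 1 symbol, 932 several and 9160 none. Genotypes were compared with limma 3.58.1 in R 4.3.3 without covariates, with Benjamini-Hochberg adjustment across every probe set tested. The interaction used 4 groups of genotype and sex. Correlations used deviations from the genotype mean. The genotype comparison and the correlations were also run on simulated data with normal noise. In the genotype comparison this noise was independent for each probe set. Such data lack the variation that probe sets of these arrays share, so they do not show how the comparisons behave with it. Promoters came from RefSeq on GRCm38.p6, and bases after the start were left out.

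The members, lists and tests were chosen with earlier results of these data known. Named genes were the members, the 3 genes most like each, and of each list those called or the 2 with the smallest p. Alternatives were the methods' t-test, covariates, a replicate block, other normalizations, filters and summaries, and arrays left out. The covariate of Hox genes, removal of a principal component and the choice of Dbh probe set were added after seeing the data.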

Additional observations from a re-analysis of the deposited data

Results flagged for a closer look

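Of 34 groups of 10 arrays, 1 for each of the 17 probe sets and genotypes, 3 held an array far from the others for its group's range, and chance flags about 1 in 20 groups. All 3 were probe sets of Dbh, in 3 different arrays. At 1459848_x_at, WT replicate 7 was at 7.48, where the other WT arrays lay between 7.24 and 7.34. At 1450670_at, Hdac4KO replicate 8 was at 5.78, where the others lay between 5.11 and 5.43. At 1447592_at, WT replicate 1 was at 4.94, where the others lay between 5.16 and 5.37.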

How the results depend on the processing

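The call of Slc6a3 (log2 fold change 0.24, adjusted p = 0.0438) was lost, leaving 0 members called higher, under these settings. They were the methods' t-test (0.24, adjusted p = 0.0541), sex as a covariate (0.24, 0.051), the 3′ minus 5′ difference as a covariate (0.23, 0.135), the Hox mean as a covariate (0.17, 0.163), median centring (0.23, 0.0524), WT replicate 8 and Hdac4KO replicate 10 left out (0.19, 0.109), and the 3 arrays at odds with their sex label left out (0.23, 0.0828). With the replicate block it was 0.24 (adjusted p = 0.0726), with 0 members, 308 probe sets higher and 640 lower. The replicate numbers do not pair the arrays, since 1 of 10 same-numbered pairs had a correlation above 0.1 and 1 of 10 arrays correlated best with its own number. Leaving out 1 array at a time gave 0.21 to 0.27 for Slc6a3, 0 to 1 members higher, and 184 to 991 probe sets higher (the most without Hdac4KO replicate 2) and 167 to 724 lower. The cause of these changes was not tested.

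Over all probe sets, 474 were higher and 453 lower. The counts were 23 and 20 with the 3′ minus 5′ covariate, 149 and 242 with the Hox mean, 789 and 712 with array weights, 219 and 173 by the mean of a gene's probe sets, 157 and 170 without WT replicate 8 and Hdac4KO replicate 10, and 174 and 241 without the 3 arrays at odds with their sex label. Counts higher were 996 with dim probe sets left out and 765 with trend and robust eBayes.

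Pairs past the threshold (1) were 2 by Spearman's rho, 8 when not centred on genotype, 4 with sex and the 3′ minus 5′ difference removed, and 0 by the mean of probe sets, with the first principal component removed, with either other Dbh probe set, and without WT replicate 8 and Hdac4KO replicate 10. Leaving out 1 array gave 0 (WT replicate 1) to 4 (WT replicate 4, Hdac4KO replicate 7 or Hdac4KO replicate 9). Relations with array measures (0) were 4 with the first principal component removed, 2 without the 3 arrays, and 0 to 2 with 1 array left out.

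Estimates changed sign at 6 uncalled probe sets, 14 times in all, with no value beyond 0.032 in size. With the 3′ minus 5′ covariate these were Nr4a2 1433423_at (-0.013) and Tph2 (-0.000691), with the Hox mean Dbh 1447592_at (0.014), with quantile normalization Slc18a2 (-0.000594), and without WT replicate 8 and Hdac4KO replicate 10 Tph2 (-0.032). With 1 array left out the ranges were -0.019 to 0.047 for Slc18a2, -0.016 to 0.068 for Tph2, -0.0076 to 0.068 for Dbh 1450670_at and -0.058 to 0.0037 for Nr4a2 1447863_s_at. The sex interaction was called at 0 members under every alternative run. No other member passed the threshold in any setting, and dim probe sets limit what Pitx3, Tph2 and the other Dbh probe sets can show.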
